A study of Mus musculus with 34 samples.

Results

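The major histocompatibility complex (MHC) genes described here are 10 genes of antigen presentation, taken by symbol from the 23951 genes of the deposited expression files, and all 10 were found there. They comprise 3 genes of the class I molecule (H2-K1 and H2-D1, its heavy chains, and B2m, its light chain), 3 genes that supply class I with peptides (the transporter subunits Tap1 and Tap2 and the immunoproteasome subunit Psmb8), and 4 class II genes (the chains H2-Aa, H2-Ab1 and H2-Eb1 and the invariant chain Cd74). They were followed in the hippocampus of 4 control mice (Hdac1f/f), 5 Hdac1 cKO mice (also carrying Nestin-Cre), 6 5XFAD mice (Hdac1f/f and 5XFAD, no Cre) and 5 compound mice (Hdac1f/f, Nestin-Cre and 5XFAD together). They were also followed in cortical nuclei sorted for GFAP, an astrocyte protein, from 3 control mice and 4 with the Hdac1 deletion. All groups carried the floxed Hdac1 allele and were 13 months old, with 13 to 14 months given for the hippocampi of control and Hdac1 cKO mice. Samples of those hippocampi carry consecutive numbers, apart from the numbers of the 5XFAD and compound hippocampi. Any difference in age or handling between these sets cannot be told apart from 5XFAD. Nestin-Cre deletes Hdac1 in neurons and astrocytes and not in microglia, and 5XFAD mice carry human transgenes of familial Alzheimer's disease driven by the neuronal Thy1 promoter. Each library came from 1 mouse and each value is in FPKM, a fragment count scaled to transcript length and library size.

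Class I molecules carry peptides of the cell's own proteins to its surface for CD8+ T cells, and nearly all cells can express them. The proteasome cuts the peptides, with Psmb8 replacing a constitutive subunit after interferon, and the transporter TAP moves them into the endoplasmic reticulum, where B2m and a heavy chain bind them. Class II molecules carry peptides from endocytosed proteins for CD4+ T cells and are made mainly by professional antigen-presenting cells. Cd74 guards the groove of the class II chains until it is cut away by proteases such as cathepsin S. In the brain, microglia are low in class II at rest and raise both classes when activated, and macrophages at the brain's borders express class II constitutively.

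In mm9, 8 of the genes lie in the MHC on chromosome 17, from H2-K1 (chr17:34132962-34137278, minus strand) to H2-D1 (chr17:35399675-35404444, plus strand), B2m is at chr2:121973422-121978819 and Cd74 is outside the MHC. The annotated ends of H2-Aa and H2-Ab1, which are transcribed towards each other, overlap by 88 bases, and reads from that stretch cannot be assigned without the strand. H2-K1 and H2-D1 are close paralogs, but only 0.4% of the words of 50 bases in the last 500 bases of the H2-K1 transcript occur in a transcript of another gene. For H2-D1 this share is 9.5%, spread over 22 other genes, and for the other 8 members it is 0.0%.

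The upstream sequences of 5 members are shown because class I and class II genes are known to be driven by different promoter elements. They are the 250 bases before the transcription start from RefSeq (GRCm38.p6 coordinates), which held a window for 7 of the 10 members. H2-Ab1, Tap2 and Cd74 had none. H2 genes are polymorphic between mouse strains, and the strain background is not given in the sources used here. These reference sequences may thus not be the alleles of the mice studied. The FPKM of the H2 genes also rest on alignment to the mm9 reference, and the part of differing alleles in them was not tested. Capitals mark matches, on either strand, to 4 motifs: GAAANNGAA and GAANTGAAA, forms of the interferon-stimulated response element, GGGATTCCC, a form of the NF-kB site, and CTGATTGG, the Y box with its CCAAT core.
H2-K1, chr17:34000348-34000597, minus strand: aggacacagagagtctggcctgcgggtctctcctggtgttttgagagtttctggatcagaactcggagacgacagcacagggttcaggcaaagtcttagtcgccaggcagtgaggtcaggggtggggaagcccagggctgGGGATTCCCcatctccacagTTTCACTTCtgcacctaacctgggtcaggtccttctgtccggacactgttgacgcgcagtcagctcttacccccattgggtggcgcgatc
H2-D1, chr17:35262844-35263093, plus strand: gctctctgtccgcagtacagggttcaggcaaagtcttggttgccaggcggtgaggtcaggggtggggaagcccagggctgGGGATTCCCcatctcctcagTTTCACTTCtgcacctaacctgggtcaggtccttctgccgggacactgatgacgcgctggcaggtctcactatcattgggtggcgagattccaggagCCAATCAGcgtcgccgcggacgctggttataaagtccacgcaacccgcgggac
B2m, chr2:122147437-122147686, plus strand: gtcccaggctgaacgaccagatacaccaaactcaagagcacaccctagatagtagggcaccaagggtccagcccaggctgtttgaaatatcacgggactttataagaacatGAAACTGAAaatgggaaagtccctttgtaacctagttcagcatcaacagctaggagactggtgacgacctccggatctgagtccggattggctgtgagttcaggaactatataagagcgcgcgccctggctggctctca
H2-Aa, chr17:34287824-34288073, minus strand: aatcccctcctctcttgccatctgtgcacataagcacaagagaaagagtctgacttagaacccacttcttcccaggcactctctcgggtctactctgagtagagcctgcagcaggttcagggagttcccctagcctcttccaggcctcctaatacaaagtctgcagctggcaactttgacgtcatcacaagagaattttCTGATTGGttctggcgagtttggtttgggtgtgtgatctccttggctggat
H2-Eb1, chr17:34305617-34305866, plus strand: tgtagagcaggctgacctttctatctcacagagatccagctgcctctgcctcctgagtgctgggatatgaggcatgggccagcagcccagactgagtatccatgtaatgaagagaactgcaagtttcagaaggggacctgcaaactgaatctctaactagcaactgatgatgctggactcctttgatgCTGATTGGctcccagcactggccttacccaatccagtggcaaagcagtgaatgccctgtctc

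The class I promoters of H2-K1 and H2-D1 each held GGGATTCCC followed by GAANTGAAA on the other strand, and their longest shared run was 47 bases. Of all 32851 promoter windows, 0.301% held GGGATTCCC and 1.5% held GAANTGAAA. B2m held GAAANNGAA, found in 7.13% of all windows. Stricter forms, with a further A after GAAANNGAA and a further G before GGGATTCCC, matched in B2m, and in 2.98% of all windows, and in H2-K1 and H2-D1, and in 0.0852% of all windows, respectively. The class II promoters of H2-Aa and H2-Eb1 each held CTGATTGG, as did H2-D1 and Tap1, against 3.83% of all windows. TTCNNNGAA, the STAT site form, matched in Psmb8, and in 7.02% of all windows. A match is a string of letters, and binding was not measured here.

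The labels were checked first. Hdac1 ranged from 5.91 to 10.7 FPKM in control and from 6.1 to 9.64 FPKM in 5XFAD hippocampi, against 2.36 to 3.03 FPKM in Hdac1 cKO and 1.15 to 2.52 FPKM in compound hippocampi. Thy1 reads, which the transgene can add to, ranged from 303 to 388 FPKM in mice without 5XFAD and from 1563 to 2357 FPKM in mice with it. In GFAP+ nuclei Hdac1 overlapped between groups, at 9.91 to 22.3 FPKM in control and 5.8 to 11.5 FPKM in Hdac1 cKO. Relative depth ran from 0.754 to 2.35 among hippocampal libraries and from 0.869 to 1.26 among nuclei, each against its control 1. The summed FPKM of 6 choroid plexus markers differed widely between hippocampi, at 590 to 20462 in control, 59.8 to 1633 in Hdac1 cKO, 56.5 to 8000 in 5XFAD and 62.3 to 14062 in compound mice.

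In 5XFAD hippocampi the class I genes and Psmb8 were 1.91- to 3.11-fold higher than in control on the log2(FPKM + 1) scale, on which all differences below are given. The class II genes spread widely between 5XFAD mice, and none passed the test. H2-D1 measured 22.6, 12.2, 20.4 and 21.7 FPKM in control and 66.0, 46.1, 33.4, 47.3, 52.6 and 46.3 FPKM in 5XFAD mice. The groups did not overlap, and the log2 difference was 1.30 ± 0.19 (SE; limma adjusted p = 0.00394). B2m averaged 581 ± 85.9 FPKM in 5XFAD (SD, n = 6), up from 305 ± 49.0 FPKM among control mice (SD, n = 4), a log2 difference of 0.93 ± 0.13 (limma adjusted p = 0.0025). Psmb8 had the largest difference of the 4 members called, at 9.02, 8.37, 12.5 and 8.81 FPKM in control and 36.5, 24, 31.8, 40.9, 32.3 and 28.5 FPKM in 5XFAD. This was 1.64 ± 0.15 on the log2 scale (limma adjusted p = 7.2e-05).

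H2-K1 measured 18.5, 16.1, 31.8 and 21.2 FPKM in control and 82.4, 46.2, 32.2, 48.6, 43.1 and 50.6 FPKM in 5XFAD. The groups did not overlap, though the highest control and the lowest 5XFAD mouse nearly met. Its log2 difference of 1.16 ± 0.23 passed narrowly (limma adjusted p = 0.0487) and held in 8 of 20 alternative settings, with an adjusted p between 0.00325 and 0.503. It was lost without any one of control mice 1, 2 and 4 and 5XFAD mice 2, 4, 5 and 6, at an adjusted p of 0.0943 to 0.152. Tap1 lay at 0.864 to 1.96 FPKM in control and 2.14 to 4.15 FPKM in 5XFAD, without overlap, and did not pass (limma adjusted p = 0.287; two-sided exact permutation p = 0.00476, the smallest this design allows). Tap2 lay at 0.306 to 1.28 FPKM in control and 0.446 to 1.13 FPKM in 5XFAD, from 3 to 14 fragments per library, so little could be detected at this depth.

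Thus 4 of the 10 members were called higher, where 0.667% of the 14402 genes tested were. By the study's thresholds (fold of at least 1.5, unadjusted p under 0.05) 5 members were higher, the fifth being H2-Ab1, where 1.72% of genes were. With a pseudocount of 0.1 in place of 1 the genes higher by these thresholds numbered 392 in place of 248. The groups did not overlap for 5 of 10 members, against 2.9% of genes. The median log2 difference was 1.16 for class I and 1.41 for class II, against -0.01 for all genes tested. These bulk values cannot tell more cells of a type from more RNA per cell.

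**Figure D1:**
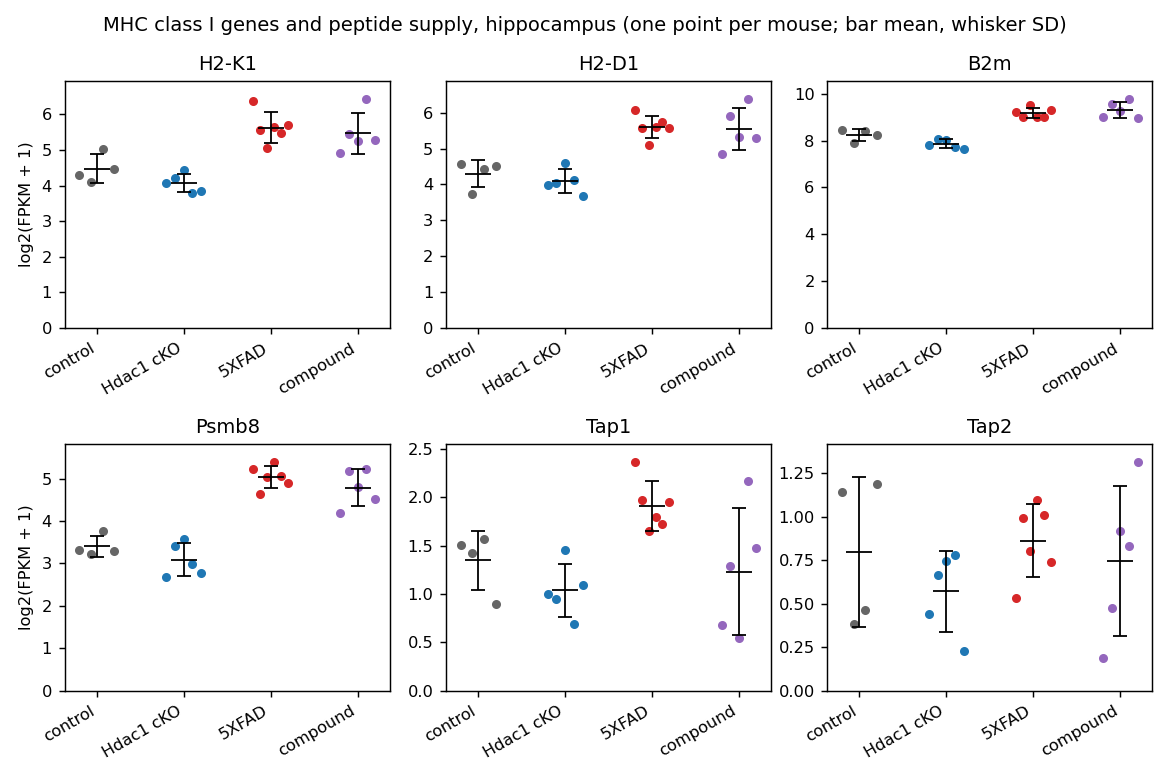
Log2(FPKM + 1) of the class I genes and the peptide supply genes in each hippocampus, with 1 point per mouse, the mean as a bar and the SD as a whisker. For H2-K1, H2-D1, B2m and Psmb8 every 5XFAD point lies above every control point, and for Tap2 the 4 groups overlap.

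The class II values differed mostly from mouse to mouse. H2-Ab1 measured 3.41, 0.707, 22.3 and 5.07 FPKM in control and 141, 32.0, 5.75, 47.8, 23.1 and 46.0 FPKM in 5XFAD. Its difference of 2.60 ± 0.95 was the largest of any member and did not pass (limma adjusted p = 0.388). H2-Aa measured 4.96, 2.26, 16.1 and 3.38 FPKM in control and 69.1, 22.1, 2.30, 21.0, 14.5 and 32.0 FPKM in 5XFAD (limma adjusted p = 0.525). 5XFAD mouse 1 was the highest and 5XFAD mouse 3 the lowest of its group for all 4 class II genes, and control mouse 3 was the highest control for the 3 class II chains.

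H2-Eb1 ranged from 1.62 to 12.1 FPKM in control and from 0.582 to 28.9 FPKM in 5XFAD, and Cd74 from 0.137 to 1.5 FPKM and from 0.279 to 12 FPKM. Cd74 rested on 1 to 5 fragments per control library and on 72, 14, 1, 9, 13 and 25 fragments in the 5XFAD libraries. The SD of the mean log2(FPKM + 1) over the class II genes was 1.33 among 5XFAD mice, against 0.224 for the class I genes in the same mice. 5XFAD mouse 3, lowest in class II, was also lowest in H2-K1, H2-D1 and Tap1 but had the highest B2m of its group, 726 FPKM.

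**Figure D2:**
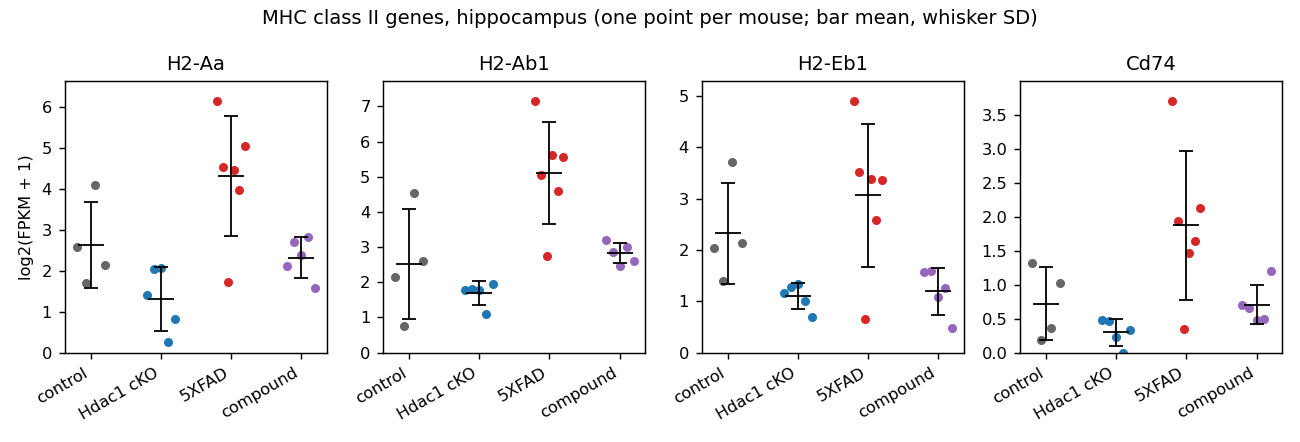
Log2(FPKM + 1) of the 4 class II genes in each hippocampus, with 1 point per mouse, the mean as a bar and the SD as a whisker. For each gene the highest 5XFAD mouse lies above every control mouse, and for H2-Eb1 the lowest 5XFAD mouse lies below every control mouse. Compound mice spread less than 5XFAD mice for each gene.

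In compound hippocampi B2m and Psmb8 were higher than in control, and no class II gene was called. B2m averaged 648 ± 159 FPKM (SD, n = 5), a log2 difference of 1.07 ± 0.18 (limma adjusted p = 0.0256) that held in 10 of 18 alternative settings, at an adjusted p between 0.000252 and 0.273. It was lost without control mouse 2, 3 or 4 or compound mouse 2 or 3, at an adjusted p of 0.0515 to 0.102. Psmb8 measured 17.4, 35.5, 26.7, 36.3 and 21.8 FPKM, above every control mouse, with a difference of 1.38 ± 0.21 (limma adjusted p = 0.0118) that held in 15 of 18, at an adjusted p between 0.000486 and 0.205, and was lost without control mouse 4 (0.0502). With the choroid plexus marker level as a covariate the differences were 0.90 for B2m and 1.18 for Psmb8, and neither passed, at an adjusted p of 0.273 and 0.205. Of 6 choroid plexus markers 4 passed the study's thresholds downwards in this comparison.

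H2-D1 measured 27.7, 58.8, 38.8, 81.7 and 38.4 FPKM in compound mice, above every control mouse, and did not pass (1.24 ± 0.30, limma adjusted p = 0.146). H2-K1, at 29.2, 42.6, 37.2, 84.7 and 37.5 FPKM, overlapped with the highest control (0.99 ± 0.29, limma adjusted p = 0.232). Compound mouse 4 was the highest of its group for H2-K1, H2-D1, B2m, Tap1 and Psmb8, and compound mouse 5 for Tap2. Compound mouse 4 also had the highest microglia (1920 FPKM) and oligodendrocyte (1952 FPKM) marker sums of any hippocampus, whose part was not tested. Tap1 spread from 0.459 to 3.5 FPKM and Tap2 from 0.141 to 1.49 FPKM, with differences of -0.12 and -0.05. The class II genes lay within or below the control range in every compound mouse, with H2-Ab1 at 4.52 to 8.13 FPKM and H2-Eb1 at 0.386 to 2.02 FPKM. In all 2 of 10 members were called higher, against 0.627% of genes, 3 did not overlap, against 4.27% of genes, and 4 passed the study's thresholds upwards, against 2.22% of genes. H2-Eb1 passed them downwards, as 2.02% of genes did. The median log2 difference was 1.07 for class I and -0.16 for class II, and the latter was 0.02 without control mouse 3 and -0.44 without control mouse 2.

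Against Hdac1 cKO hippocampi, compound hippocampi were higher in 5 of the 9 members tested, where 1.42% of genes were called higher. B2m differed by 1.45 ± 0.15 on the log2 scale (limma adjusted p = 0.000256), Psmb8 by 1.70 ± 0.22 (limma adjusted p = 0.0013), H2-K1 by 1.39 ± 0.24 (limma adjusted p = 0.0125) and H2-D1 by 1.46 ± 0.27 (limma adjusted p = 0.0185). H2-D1 was lost without Hdac1 cKO mouse 1, 2, 4 or 5 or compound mouse 2, at an adjusted p of 0.055 to 0.0627. H2-Ab1 was the class II gene called, at 2.47, 2.51, 2.42, 1.16 and 2.90 FPKM in Hdac1 cKO and 8.13, 6.29, 4.52, 7.06 and 5.15 FPKM in compound mice. The groups did not overlap and the difference was 1.14 ± 0.19 (limma adjusted p = 0.00582). With all 4 hippocampal groups in one fit, which adds the control and 5XFAD mice, its limma adjusted p was 0.63. By the study's thresholds 6 members were higher, with H2-Aa added, where 2.94% of genes were. For 5 of the 9 the groups did not overlap, against 3.34% of genes. Cd74 fell under the filter of a mean of 0.5 FPKM and was not tested. Called higher in the same comparison were also 5 of 10 microglia markers, 2 of 7 astrocyte markers (Gfap and Aqp4), 1 of 3 dendritic cell markers tested (Itgax) and 1 of 6 oligodendrocyte markers (Cldn11, 0.66 ± 0.15, limma adjusted p = 0.0432), and their part in the members' differences was not tested.

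Between compound and 5XFAD hippocampi no member was called, where 0.00698% of genes were, which was Hdac1 alone. The measured means of the class II genes were 0.126 to 0.178 times those of 5XFAD mice. Without 5XFAD mouse 1 these ratios were 0.201 for H2-Ab1, 0.199 for H2-Eb1, 0.229 for H2-Aa and 0.319 for Cd74. Of the 10 members 5 had an unadjusted limma p under 0.05, as did 947 of the 14326 genes. H2-Ab1 differed by -2.29 ± 0.65, H2-Aa by -1.99 ± 0.67, H2-Eb1 by -1.87 ± 0.62 and Cd74 by -1.16 ± 0.45 on the log2 scale, at limma adjusted p-values of 0.711 to 0.734. The two-sided exact permutation p over mice was 0.0108 for H2-Ab1, 0.0216 for H2-Aa and for H2-Eb1 and 0.0411 for Cd74, unadjusted. For each of the 4 genes, 5 of the 6 5XFAD mice lay above all compound mice, and 5XFAD mouse 3 lay within or below the compound range. No member separated the groups, against 0.607% of genes. At the study's thresholds 5 members were lower, these 4 and Tap1, where 0.593% of genes were. With a pseudocount of 0.1 in place of 1 the genes lower by these thresholds numbered 163 in place of 85. None of the class II differences passed in any of 20 alternative settings, the lowest adjusted p being 0.0897. Endothelial markers summed to 10.1 to 12.8 FPKM in compound and 12.4 to 17.0 FPKM in 5XFAD mice. The 6 choroid plexus markers had a median log2 difference of -1.61 in this comparison. No marker of either list passed the study's thresholds, and their part in the class II differences was not tested. The class I differences were -0.17 ± 0.27 for H2-K1, -0.06 ± 0.24 for H2-D1 and 0.14 ± 0.15 for B2m. Without single mice H2-K1 ranged from -0.41 (compound mouse 4) to -0.02 (5XFAD mouse 1) and B2m from 0.02 (compound mouse 4) to 0.22 (compound mouse 5).

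**Figure D3:**
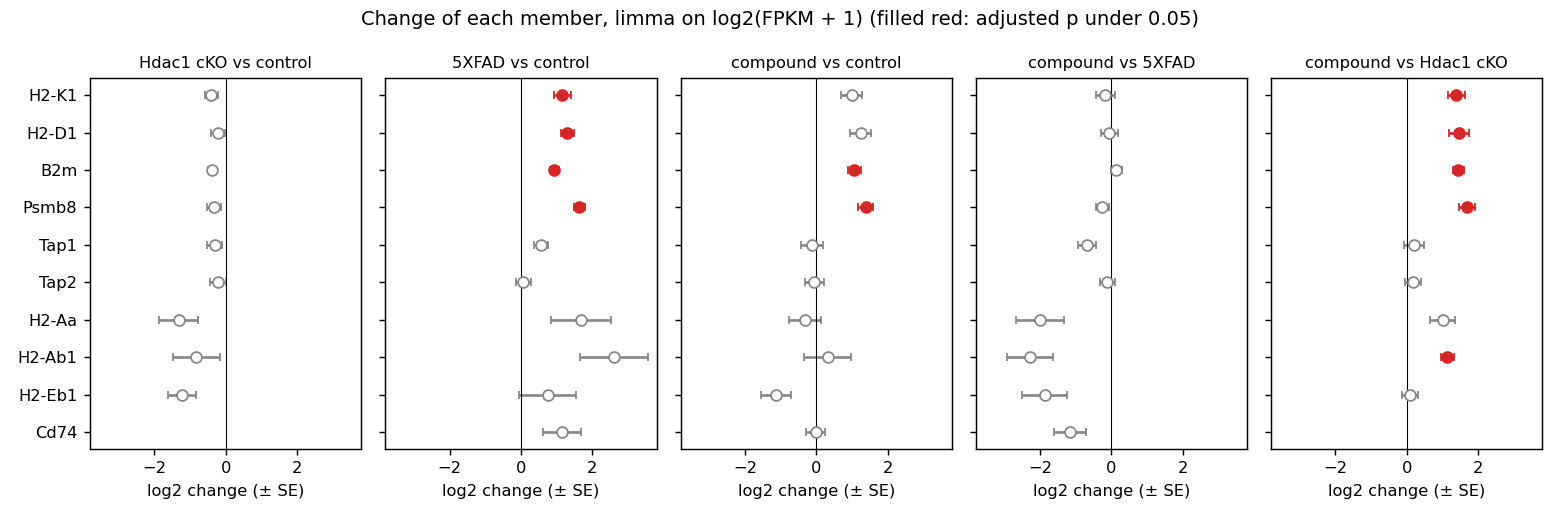
Log2 change of each member with its standard error in 5 hippocampal comparisons, with filled red points for an adjusted p under 0.05. The class I points lie to the right in 5XFAD against control and in compound against control and against Hdac1 cKO. In compound against 5XFAD the class I points lie near 0 and the class II points lie to the left with wide errors.

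In Hdac1 cKO hippocampi no member was called against control, where 0.154% of the 14265 genes were, and 3 of the 9 tested had an unadjusted limma p under 0.05, as did 1676 genes. All 9 had a log2 difference below 0, of -0.22 to -1.32, against a median of -0.0007 over all genes tested. H2-K1 measured 16.0, 17.3, 20.7, 12.9 and 13.3 FPKM in Hdac1 cKO mice, overlapping with control, and H2-D1 ranged from 11.8 to 23.3 FPKM. B2m averaged 233 ± 30.6 FPKM (SD, n = 5) over Hdac1 cKO mice (-0.38 ± 0.12, limma adjusted p = 0.249). H2-Eb1 measured 3.14, 1.62, 12.1 and 3.42 FPKM in control and 1.25, 1.43, 1.52, 1.01 and 0.623 FPKM in Hdac1 cKO. These groups did not overlap, as for 4.23% of genes, and the difference of -1.23 ± 0.38 did not pass (limma adjusted p = 0.239). Without control mouse 3 it was -0.76, that of H2-Aa -0.83 and that of H2-Ab1 -0.15. Without control mouse 2 these were -1.54, -1.62 and -1.40. H2-Aa and H2-Eb1 passed the study's thresholds downwards, as 2.87% of genes did.

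The choroid plexus markers moved with this comparison, since 6 of 6 passed the study's thresholds downwards in Hdac1 cKO, with a median log2 difference of -3.45. Beside summed choroid plexus markers of 590, 17722, 20462 and 13097 FPKM, control mice 1 to 4 had 11.5, 4.59, 50.4 and 11.9 FPKM of the 3 class II chains summed. With the choroid plexus marker level as a covariate, the difference of H2-Eb1 was -1.20 and that of H2-Aa -1.42, while that of H2-Ab1 went from -0.82 to -0.19, at adjusted p-values of 0.745, 0.785 and 0.987. H2-D1 went from -0.22 to -0.71 and Tap2 from -0.22 to -0.82, both at an adjusted p of 0.679.

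The interaction asks whether 5XFAD had another effect on a member with Hdac1 deleted than without. No member was called, with 0.0% of the 14389 genes called by limma and 1290 genes at an unadjusted p under 0.05. B2m was the member with an unadjusted p under 0.05 (0.52 ± 0.21, limma adjusted p = 0.479). The class II terms were -0.68 ± 0.93 for H2-Aa, -1.46 ± 0.96 for H2-Ab1, -0.65 ± 0.81 for H2-Eb1 and -0.74 ± 0.56 for Cd74, with errors of the order of the terms themselves. Leaving out single mice moved them to between -1.19 and -0.31, -2.14 and -0.88, -1.13 and -0.28, and -1.04 and -0.37 in the same order. For H2-Ab1 the ends came without control mice 3 and 2, and for the others without 5XFAD mice 3 and 1.

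**Figure D4:**
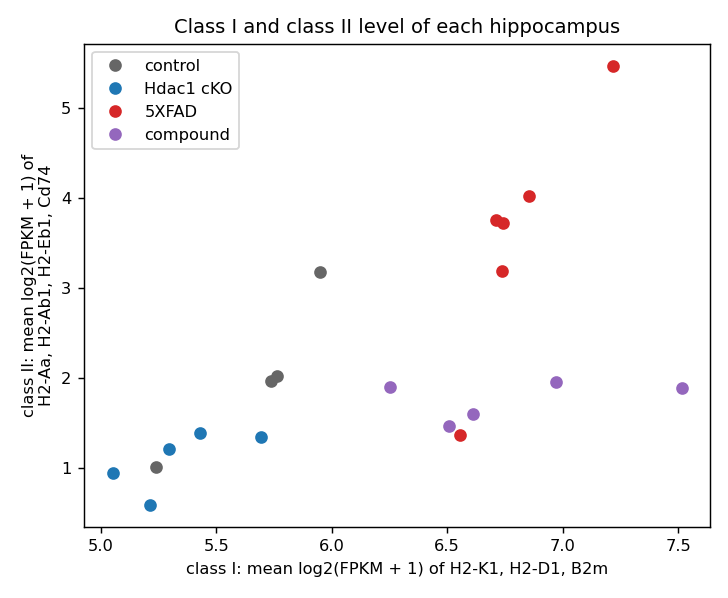
Mean log2(FPKM + 1) of the class I genes (horizontal) and of the class II genes (vertical) in each of the 20 hippocampi, with 1 point per mouse. The 5XFAD and compound mice lie to the right of the others in class I, and 5 of the 6 5XFAD mice lie above all compound mice in class II.

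Other genes of antigen presentation, from lists of related genes, mostly did not pass. Of 19 further class I genes 10 were tested in 5XFAD against control and none was called, nor was any of 11 class I processing genes, 3 constitutive proteasome subunits, 4 other class II genes and 14 regulators. In 5XFAD against control 2 of 6 class II processing genes were called: the cathepsin Ctss (1.25 ± 0.10, limma adjusted p = 3.6e-05), which cuts Cd74, and the thiol reductase Ifi30 (1.07 ± 0.20, limma adjusted p = 0.0257). Ctss was also called in compound against control mice (1.67 ± 0.19, limma adjusted p = 0.00255), with the myeloid transcription factor Irf8 (1.16 ± 0.22, limma adjusted p = 0.0351). Against Hdac1 cKO, compound mice were higher in Ctss, Ctsl, the costimulatory Cd86 and Irf8. In Hdac1 cKO against control, compound against 5XFAD, the interaction and the nuclei, no gene of these lists was called. Ciita, the master regulator of class II, stayed at or below 0.244 FPKM in every hippocampus, and Ifng was above 0 in 1 library, 5XFAD mouse 1.

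Microglia markers were higher alongside the class I genes, and so were single astrocyte markers. The summed level of 10 microglia markers was 277 to 336 FPKM in control, 284 to 355 FPKM in Hdac1 cKO, 706 to 1029 FPKM in 5XFAD and 974 to 1920 FPKM in compound mice. In 5XFAD 6 of 10 were called higher, Trem2 by 2.35 ± 0.19 (limma adjusted p = 3.7e-05), and in compound mice 5 of 10. The compound range reached highest and overlapped with that of 5XFAD, while in mean class II level the compound mice lay below 5 of the 6 5XFAD mice. The summed level of 7 astrocyte markers was 932 to 1047 FPKM in control, 942 to 1062 FPKM in Hdac1 cKO, 1049 to 1211 FPKM in 5XFAD and 1133 to 1274 FPKM in compound mice. Of these 7, 1 was called in 5XFAD, Gfap (1.90 ± 0.12, limma adjusted p = 1.9e-06), with a median over the 7 of 0.09, and 2 in compound mice against control, Gfap (2.10 ± 0.18, limma adjusted p = 0.000224) and Aqp4 (1.23 ± 0.16, limma adjusted p = 0.00317). Of 4 dendritic cell markers 1 was called in 5XFAD, Itgax, which activated microglia also express. Border macrophage markers summed to 7.32 to 21.8 FPKM in control, 7.63 to 14.2 FPKM in Hdac1 cKO, 4.14 to 24.1 FPKM in 5XFAD and 4.42 to 12 FPKM in compound mice. In compound against control 1 of 2 border macrophage markers tested passed the study's thresholds downwards (-0.85), as did 1 of 5 endothelial markers. T cell markers summed to at most 6.36 FPKM in any hippocampus. Of these, Cd3d was above 0 in all 20 hippocampi, and Cd3e in 3, those of 5XFAD mice 1 and 6 and compound mouse 4. The part of each cell type in the members' values was not tested.

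Within groups the class II chains were the most alike of the members. Over 20 hippocampi, with group means removed, Pearson's r was 0.93 for H2-Ab1 with H2-Eb1, 0.93 for H2-Aa with H2-Eb1, 0.88 for H2-Aa with H2-Ab1 and 0.82 for H2-K1 with H2-D1. Likeness did not follow the classes throughout, since r was 0.63 to 0.65 for Cd74 with the 3 chains, 0.51 for H2-K1 with B2m, 0.78 for H2-K1 with H2-Aa and -0.02 for Tap1 with Tap2. The wide 5XFAD group weighs most in the class II values. Of 12986 other genes averaging 1 FPKM or more, those most like H2-K1 by this measure were the complement gene C4b (r = 0.84), the interferon-induced GTPase gene Gbp7 (0.81) and Rnf10 (0.80). The genes most like Cd74 were Acbd3, Syp and Ctdp1 (0.79 each), and those most like Psmb8 were Bad (0.80), Ebp (0.79) and Fcgr1 (0.79).

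In GFAP+ nuclei no member was called between Hdac1 cKO and control, where 0.0133% of 15070 genes were. In these nuclei 7 astrocyte markers summed to 2650 to 3258 FPKM and 6 neuron markers to between 172 and 248 FPKM. Markers of other cells were also present, with oligodendrocyte markers at 419 to 1140 FPKM, microglia markers at 45.7 to 105 FPKM and endothelial markers at 24.6 to 58.0 FPKM. Sums over different genes do not measure the purity of the sort. H2-K1 measured 104, 66.0 and 41.4 FPKM in control and 69.8, 64.7, 76.5 and 73.0 FPKM in Hdac1 cKO nuclei (0.11 ± 0.25, limma adjusted p = 0.996). Cd74 measured 11.9, 20.1 and 12.5 FPKM in control and 4.43, 3.11, 10.7 and 8.24 FPKM in Hdac1 cKO nuclei, without overlap (-1.14 ± 0.35, limma adjusted p = 0.984). The exact permutation p was 0.0571, and 0.0286 is the smallest that 3 against 4 mice allow.

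B2m averaged 102 ± 19.8 FPKM (SD, n = 3) over control nuclei and 68.3 ± 17.9 FPKM (SD, n = 4) over Hdac1 cKO nuclei, and its groups overlapped. Tap2 averaged 24.4 ± 1.76 FPKM (SD, n = 3) against 31.6 ± 3.02 FPKM (SD, n = 4), without overlap (0.36 ± 0.14, limma adjusted p = 0.984). At the study's thresholds Cd74 and B2m were lower, where 1.34% of genes were, and 3 members had an unadjusted limma p under 0.05, as did 709 of the 15070 genes. The 5 endothelial markers, which stand for another cell type, summed to 36.0, 58.0 and 45.3 FPKM in control and 34.6, 24.6, 29.4 and 33.8 FPKM in Hdac1 cKO nuclei, without overlap, and 1 of 5 passed the study's thresholds downwards. The 6 choroid plexus markers summed to 18.8, 24 and 155 FPKM in control and 182, 117, 270 and 219 FPKM in Hdac1 cKO nuclei, with overlap, and 2 of 6 passed the study's thresholds upwards. The part of either in these differences was not tested. For 2 of 10 members the groups did not overlap, against 5.72% of genes. The 3 class II chains overlapped, H2-Ab1 with 3.82 to 10.8 FPKM in control and 1.89 to 7.11 FPKM in Hdac1 cKO nuclei. Levels were not compared between nuclei and hippocampus, whose libraries were made differently.

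**Figure D5:**
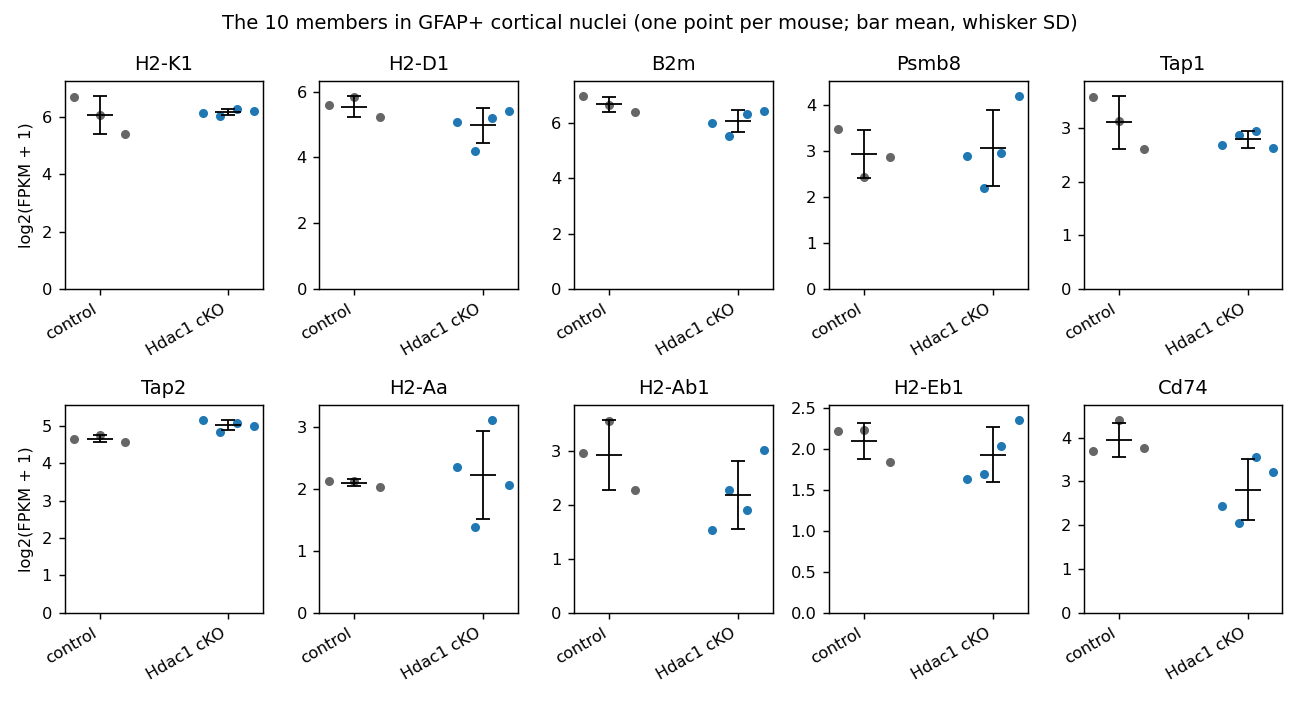
Log2(FPKM + 1) of the 10 members in GFAP+ nuclei of 3 control and 4 Hdac1 cKO mice, with 1 point per mouse, the mean as a bar and the SD as a whisker. The groups separate for Cd74 and Tap2 and overlap for the other 8.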

How the data were processed

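RNA-seq of 27 of the 34 samples was analysed, leaving out 1 sample of control nuclei and 6 of ChIP-seq, not analysed here. The deposited files hold FPKM, which the authors computed with Cufflinks 2.0.0 from reads aligned to mm9, for the hippocampus from 3′ Digital Gene Expression. The aligner of the nuclei libraries is not given in the sources used here. Genes averaging 0.5 FPKM or more in a fit were tested on log2(FPKM + 1), so fold changes of low genes are understated, with limma 3.58.1 (trend, robust, R 4.3.3), Benjamini-Hochberg adjusted over all genes tested, and called at 0.05. Only the groups compared entered a fit, without covariates. Single members were also compared by two-sided exact permutation (Python 3.11.15). The fits were tested on simulated data. The 3 hippocampal comparisons with control share the same 4 control mice, and the 3 comparisons with compound mice share those. Replicates are separate mice, and numbers shared between groups were not taken to pair them.

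Where FPKM times relative depth came out as whole multiples, fragments were recovered, within 0.01 for 9 of 10 members in hippocampus and 7 in nuclei. The largest unit that fitted was taken, so the fragments given are the smallest counts that fit the values. A tolerance of 0.05 was used at first, under which all 10 and 8 were whole, and it was narrowed after H2-D1 had come out mainly in multiples of 9. No FPKM value or test depends on it. The named genes are the 10 members, up to 4 called genes of the related lists per comparison, label checks, markers, and for H2-K1, Cd74 and Psmb8 the 3 genes most alike. Ciita, Ifng and Trem2 were named after their values were seen. The members and lists were chosen with earlier results of these data known. Alternatives were another pseudocount, filter, scaling or moderation, all hippocampal groups in one fit, a replicate block and each mouse left out. Chosen after seeing the data were a choroid plexus covariate, leaving out control mouse 3 and 5XFAD mouse 1 together, and the motifs of 9 letters, adopted because H2-K1 is known to carry such a form.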

Additional observations from a re-analysis of the deposited data

Results flagged for a closer look

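Of 50 member and group pairs with at least 4 mice, 8 had a mouse far from the others by Dixon's test. Chance alone passes it in about 5% of groups if values are normally distributed. The test was run on FPKM and not on log2(FPKM + 1), and skewed FPKM alone can raise the share flagged. The 8 are therefore not read as an excess over 5%. In 5XFAD the highest mouse stood apart for H2-K1 (82.4 FPKM), H2-Ab1 (141 FPKM), H2-Eb1 (28.9 FPKM) and Cd74 (12 FPKM), and all 4 values are of 5XFAD mouse 1. In compound mice the highest value stood apart for H2-K1 (84.7 FPKM, mouse 4) and for Cd74 (1.30 FPKM, mouse 5, from 7 fragments). In control the highest Psmb8 value stood apart (12.5 FPKM, mouse 3), and in Hdac1 cKO the lowest H2-Ab1 value (1.16 FPKM, mouse 4). No cause was tested.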

How the results depend on the processing

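Depth limits Tap2 and Cd74, which rested on few fragments per hippocampus, and 3 to 6 mice per group limit every comparison. Few fragments per library also stood behind H2-Aa (1 to 16) and H2-Eb1 (7 to 13) in Hdac1 cKO mice. In compound mice this held for H2-Eb1 (3 to 15) and for the lower libraries of Tap1 (3 to 68). Over all settings, no member was called in Hdac1 cKO against control, in compound against 5XFAD, in the interaction or in the nuclei. B2m, H2-D1 and Psmb8 were called in 5XFAD against control, and B2m and Psmb8 in compound against Hdac1 cKO, in every setting run. Where values moved, the cause was not tested.

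For Hdac1 cKO against control, where 22 genes were called, the count was 9 without the filter, 8 without trend and robust moderation and 1 with all 4 groups in one fit. It was 0 with the choroid plexus covariate, with which the class I median was -0.69 in place of -0.38. Leaving out a mouse gave 2 to 290, the highest without control mouse 1. For 5XFAD against control the count of 102 became 61 with the covariate, and Tap2 turned from 0.07 to -0.07 (-0.07 to 0.20 without single mice). Genes past the study's thresholds went from 425 to 641 with a pseudocount of 0.1, and in compound against 5XFAD those lower went from 85 to 163.

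For compound against control, where 95 genes and 2 members were called, the gene count was 62 without trend and robust moderation, 207 with all 4 groups in one fit and 29 with the covariate. The members called were 1, 3 (with H2-D1) and 0, and without single mice 41 to 105 genes and 0 to 2 members were called. Tap2 was 0.02 after quantile normalization, and Cd74 0.15 with a pseudocount of 0.1 and 0.07 after quantile normalization. Without single mice Tap1 ranged from -0.35 to 0.05, Tap2 from -0.19 to 0.09, H2-Aa from -0.62 to 0.18, H2-Ab1 from -0.26 to 0.99 and Cd74 from -0.19 to 0.19.

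For compound against 5XFAD, where 1 gene, Hdac1, was called, the count was 3 with all 4 groups in one fit, 2 with the covariate and 1 to 4 without single mice. Without single mice H2-D1 ranged from -0.27 to 0.12 and Tap2 from -0.26 to 0.02. For compound against Hdac1 cKO the class II median of 1.00 was 1.43 with a pseudocount of 0.1, 0.71 without the filter and with all 4 groups in one fit, and 0.54 to 1.19 without single mice, where Tap1 ranged from -0.04 to 0.37 and H2-Eb1 from 0.00 to 0.28.

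In the interaction Psmb8, at 0.06, was -0.02 without control mouse 3 and 5XFAD mouse 1. Without single mice it ranged from -0.06 to 0.21, H2-K1 from -0.01 to 0.38, H2-D1 from -0.04 to 0.35 and Tap2 from -0.03 to 0.25, with 0 to 1 genes called. In the nuclei 2 to 9 genes were called, and H2-K1 ranged from -0.22 to 0.43, Psmb8 from -0.24 to 0.42 and H2-Aa from -0.17 to 0.40.

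Replicate numbers were not taken to pair the mice. Deviations of mice with the same number correlated between -0.117 and 0.0982 over genes. Mice of different numbers were not correlated for reference, so whether numbers mark shared litters or handling was not tested. With the replicate block 0 genes were called in Hdac1 cKO against control, 48 in 5XFAD against control, 34 in compound against control (and 0 members) and 5 in the nuclei, and the interaction of Psmb8 was -0.02. Of the members called, H2-K1 in 5XFAD against control and in compound against Hdac1 cKO, and B2m and Psmb8 in compound against control, lost the call under the block.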
